A study of Mus musculus with 81 samples.

Results

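Accessible chromatin was described here at 10 genes of the passage from G1 to S phase, of 21887 protein-coding genes in the gene table: the D cyclins Ccnd1 and Ccnd2, the E cyclins Ccne1 and Ccne2, the activating E2F factors E2f1, E2f2 and E2f3, the ribonucleotide reductase subunits Rrm1 and Rrm2, and the thymidine kinase Tk1. The rule that chose the genes lists them by name and uses no measured value. A locus is the gene model of the assembly GRCm38.p6, which has the coordinates of mm10, with 10 kb on each side. All 10 were found. The loci held 70 of the 139000 regions in the deposited count table. In the cell cycle, D cyclins activate Cdk4 and Cdk6, and E cyclins activate Cdk2, and both phosphorylate the retinoblastoma protein. This frees the E2F factors, which switch on genes of S phase, the genes for E2F factors, E cyclins and nucleotide synthesis among them. Ribonucleotide reductase makes deoxynucleotides from ribonucleotides, and thymidine kinase salvages thymidine, so that both feed the DNA synthesis that repli-ATAC-seq follows.

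ATAC-seq marks open DNA by the cuts of a transposase, and repli-ATAC-seq reads the same cuts on newly replicated DNA, captured through the thymidine analogue EdU. The 81 samples form 27 groups of 3. Wild-type embryonic stem (ES) cells of the line 129/Ola were sampled at 0h, and at 9h and 48h after transfer from a Gsk3 inhibitor, LIF and a MEK inhibitor (replaced by an FGFR inhibitor in the last day) to FGF2 and Activin A, which turns them into epiblast-like cells (EpiLC, at 48h). Embryonic fibroblasts of the mouse (MEF; Black6-129X1/SvJ, heterozygous for each of Col1a1::tetOP-OKSM, the transactivator R26-M2rtTA and the reporter Oct4GFP), all given 2 µg/mL doxycycline and ascorbic acid in medium with LIF to induce the 4 reprogramming factors, were sampled at 6h, 12h and 36h. In both courses cells took up 20 µM EdU for 10 min. They were taken at once (nascent chromatin) or 2 h after the label, following thymidine at 10 µM (mature chromatin), and the unbound fraction gave bulk chromatin. For MEF there is a bulk list from each arm of the capture. At 60h, MEF were sorted by a division dye into fractions Q1 to Q4, and the labels do not say which was brightest. In a further experiment, MEF under the same induction received 5 µg/mL aphidicolin, an inhibitor of replicative DNA polymerases, 4 h after induction and for 10 h, beside untreated MEF (3 samples each), both at 14h. All of these MEF carry the OKSM cassette and the doxycycline, treated or not, so no group here shows uninduced fibroblasts. For the animals, age and number per sample are not given in the sources used here.

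Peak lists held 137173 to 203188 peaks for bulk chromatin, 14281 to 94946 for mature, 3222 to 27693 for nascent and 57762 to 73518 for the sorted fractions. There is 1 list per group, so comparisons between lists have no replicate check. The nascent (3222) and mature (14281) lists of MEF at 6h were the shortest of their kinds. Start peaks (within 1 kb of a gene start) were found at all 10 fibroblast markers in each MEF bulk list and at 9 of 10 naive ES cell markers in each ES cell bulk list. They were also found at 8 of 10 fibroblast markers in each ES cell bulk list and at 5 to 7 of 10 naive markers in each MEF bulk list, so start peaks separated the systems only in part. Nanog and Dppa3 had none in any MEF bulk list, Dppa3 had none in the ES cell bulk lists either, and Esrrb, Tfcp2l1, Klf2, Klf4 and Tbx3 had one in every MEF bulk list. Of 5 blood markers 1 to 3 had a start peak in a bulk list, and Ptprc had none. In a bulk sample, more cells with an open site and a more open site per cell cannot be told apart.

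The promoter windows below show the starts on which the results turn. Ccne1 and E2f3 are the members with a start peak in every pooled list, and E2f2 and E2f3 each have 2 annotated starts, all of which carried peaks. RefSeq windows of 250 bases before and 50 after a start (GRCm38.p6) were matched for 7 members, with 9 windows. They are printed 5′ to 3′ on the strand of the gene, and capitals mark letters that match an E2F word (TTTCCCGC, TTTGGCGC, TTTCGCGC or TTTGCCGC), an NF-Y word (CCAAT) or a GC box (GGGCGG) on either strand. The windows lie at chr7:38107441-38107740 (Ccne1, minus strand), chr4:136172024-136172323 (E2f2 upstream start, plus strand), chr4:136180532-136180831 (E2f2 downstream start, plus strand), chr13:29986014-29986313 (E2f3 upstream start, minus strand) and chr13:29984342-29984641 (E2f3 downstream start, minus strand).
Ccne1: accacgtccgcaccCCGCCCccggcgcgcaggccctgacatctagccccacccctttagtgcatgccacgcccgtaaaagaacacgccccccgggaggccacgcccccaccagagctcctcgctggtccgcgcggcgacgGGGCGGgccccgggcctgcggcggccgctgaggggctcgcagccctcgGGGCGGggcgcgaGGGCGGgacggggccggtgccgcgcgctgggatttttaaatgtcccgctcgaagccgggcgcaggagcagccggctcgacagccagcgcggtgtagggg
E2f2 upstream start: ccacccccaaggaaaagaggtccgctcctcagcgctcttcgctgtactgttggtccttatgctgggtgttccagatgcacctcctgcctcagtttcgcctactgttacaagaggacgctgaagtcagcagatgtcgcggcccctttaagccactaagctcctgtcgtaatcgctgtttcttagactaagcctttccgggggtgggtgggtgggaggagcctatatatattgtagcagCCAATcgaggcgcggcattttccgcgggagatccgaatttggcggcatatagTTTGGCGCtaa
E2f2 downstream start: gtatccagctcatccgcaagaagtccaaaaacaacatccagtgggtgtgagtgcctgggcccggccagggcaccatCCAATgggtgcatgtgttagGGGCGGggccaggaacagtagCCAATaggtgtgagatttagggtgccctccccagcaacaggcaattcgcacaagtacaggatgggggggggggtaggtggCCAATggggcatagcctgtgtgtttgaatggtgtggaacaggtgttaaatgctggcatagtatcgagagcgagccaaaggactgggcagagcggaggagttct
E2f3 upstream start: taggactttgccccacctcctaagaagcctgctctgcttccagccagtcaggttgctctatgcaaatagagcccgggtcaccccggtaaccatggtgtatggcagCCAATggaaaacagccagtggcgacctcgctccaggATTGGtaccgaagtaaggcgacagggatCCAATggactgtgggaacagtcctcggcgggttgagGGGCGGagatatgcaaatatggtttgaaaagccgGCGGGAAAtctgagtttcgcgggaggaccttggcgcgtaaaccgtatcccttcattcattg
E2f3 downstream start: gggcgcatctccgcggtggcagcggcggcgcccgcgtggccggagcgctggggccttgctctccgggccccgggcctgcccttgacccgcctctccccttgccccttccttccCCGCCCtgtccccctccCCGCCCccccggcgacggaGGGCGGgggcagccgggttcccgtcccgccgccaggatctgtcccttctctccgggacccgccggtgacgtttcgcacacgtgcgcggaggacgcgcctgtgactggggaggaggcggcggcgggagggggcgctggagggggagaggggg

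An E2F word was found in 2 of the 9 windows, the upstream windows of E2f2 (TTTGGCGC, first base 39 bases after the start) and E2f3 (GCGGGAAA, the reverse complement of TTTCCCGC, 11 bases before the start). Of all 21263 promoter windows, 2.86% held one. CCAAT was in 5 of 9 windows (E2f2 at both starts, the upstream start of E2f3, Rrm1 and Rrm2), against 38.2% of all. A GC box was in 7 of 9, against 46.2% of all, with 4 copies at Ccne1 and 5 at E2f1. The E2f1 window (chr2:154569377-154569676, minus strand) lies inside the gene model. The upstream end of that model, at 154569892, was outside the window and was not searched. Of the other words searched on both strands, CACGTG (E-box, 7.83% of all windows) was in the downstream window of E2f3 and TTTGAA (CHR, 16.0%) in the downstream window of E2f2 and the upstream window of E2f3. TGACTCA or TGAGTCA (AP-1, 4.66% of all) and TGACGTCA (CRE, 2.23%) were in none of the 9. No match of one motif overlapped a match of another in these windows. A match describes letters and is not evidence of a bound factor.

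The starts of the 10 genes were open in both cell systems, and they differed in whether newly copied DNA carried a peak. All 10 members had a start peak in each of the 9 bulk lists and the 4 lists of sorted fractions. For comparison, 67.2% to 72.7% of all protein-coding genes had one in the bulk lists and 56.2% to 62.0% in the fractions. Where Ccnd1, Ccnd2 and Ccne2 are concerned, a start peak is one within 1 kb of either end of the gene model. In nascent chromatin 7 members had a start peak in ES cells at 0h and at 9h, 9 in EpiLC at 48h, 2 in MEF at 6h, and 8 at 12h and at 36h. The share of all genes in those nascent lists was 50.5%, 48.9%, 59.5%, 9.98%, 48.2% and 47.3%, in the same order. The map of start peaks shows the members without a nascent peak, which outside MEF at 6h were the D cyclins and Tk1.

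**Figure D1:**
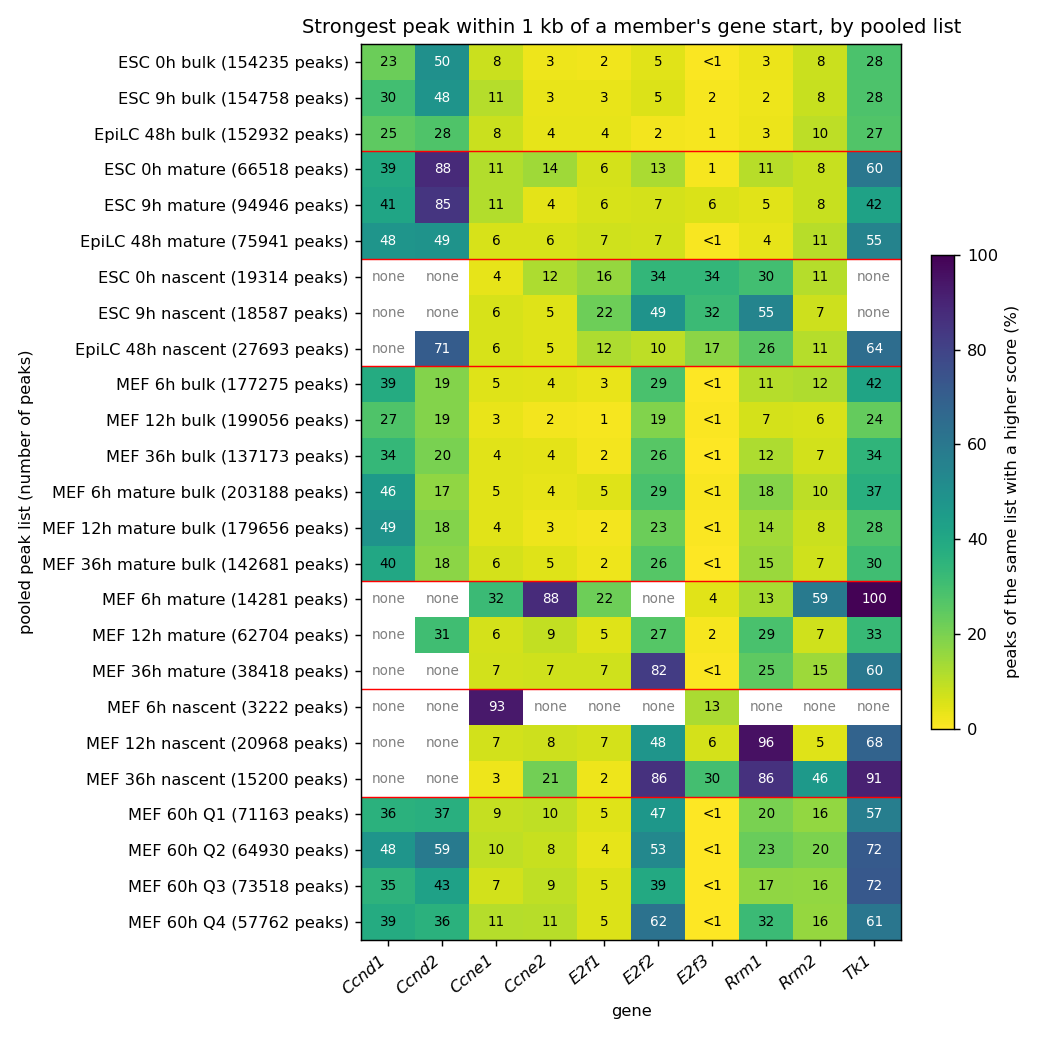
Strongest start peak of each member (columns) in each of the 25 pooled lists (rows, with the list's number of peaks); colour and number give the percentage of peaks of the same list with a higher score, and "none" marks no peak within 1 kb of a start. Ccnd1 has no start peak in any of the 6 nascent lists, whereas Ccne1 and E2f3 have one in every list.

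Ccnd1, the cyclin D gene that growth factors induce, had no start peak in any of the 6 nascent lists and none in the 3 mature lists of MEF. Its start peak was present in the mature lists of the ES cell course, with scores of 254 at 0h, 270 at 9h and 193 at 48h (the peak caller's scores, which are the authors' and are read here only within a list). In bulk chromatin the same start scored 1378, 680 and 847 at these times, and 776, 1547 and 902 in MEF at 6h, 12h and 36h. A second site of Ccnd1, at chr7:144942187-144943726, outside the gene model, was open in every bulk list and carried a nascent peak in all nascent lists but that of MEF at 6h, with scores of 80 and 105 in ES cells at 0h and 9h, 120 in EpiLC, and 80 and 74 in MEF at 12h and 36h. Its bulk score was above that of the start at each time, at 1836, 1440 and 1119 in the ES cell course and 2041, 3955 and 1563 in MEF. Newly copied Ccnd1 thus carried a peak beside the gene while none was listed at either end of it.

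Ccnd2, the second D cyclin, had a nascent start peak in EpiLC at 48h alone, with a score of 77. In bulk chromatin the start scored 450, 335 and 745 in ES cells at 0h, 9h and 48h, and 1849, 2388 and 1667 in MEF at 6h, 12h and 36h. Within those lists, 49.7%, 48.4% and 27.7% of the peaks of the ES cell course scored higher than the Ccnd2 start, against 18.6%, 18.6% and 20.2% in MEF. So among the peaks of its own list the start of Ccnd2 ranked higher in each of the 6 MEF bulk lists than in the 3 bulk ES cell and EpiLC lists. At a site inside the gene model, chr6:127130307-127131104, a peak was listed at 0h, 9h and 48h in bulk ES cell chromatin and in none of the 6 of MEF. Its nascent peak was listed in EpiLC only.

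The E cyclins had start peaks on newly copied DNA at nearly every time. Ccne1, like E2f3, had a start peak in all 25 pooled lists, including the 3222 peaks of MEF at 6h, where it scored 40 and 93.0% of peaks scored higher. In the other nascent lists Ccne1 scored 404 and 312 in ES cells at 0h and 9h, 406 in EpiLC, and 369 and 448 in MEF at 12h and 36h, and 2.71% to 6.85% of peaks scored higher. Ccne2 scored 280, 335, 428, 359 and 233 in the same 5 lists and had no nascent peak in MEF at 6h. Ccne1 had 5 sites open in ES cell lists only and none open in MEF lists only. Its site at chr7:38111880-38112334, outside the gene model, was open in every bulk list and in 3 mature lists, and in no nascent list.

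Among the E2F genes, E2f3 had the highest-ranked bulk starts and the most sites along its long gene model. In the bulk lists 0.219% to 1.56% of peaks scored higher than the E2f3 start, and in the sorted fractions 0.04% to 0.148%. Of the 39 merged sites at the E2f3 locus, 17 were open in ES cell lists only and 15 in MEF lists only, and 2 were open in every bulk list. Those 2 were its annotated starts, chr13:29985827-29986935, with a nascent peak in all 6 lists, and chr13:29983894-29985026, with one in 5 of 6. Along the ES cell course the locus had 19, 15 and 9 bulk peaks at 0h, 9h and 48h, and 13 of the 19 peaks at 0h had no counterpart at 48h (68.4%, against 38.9% of all peaks of the list). From MEF at 36h to fraction Q1 at 60h, 6 of its 8 bulk peaks had no counterpart (75.0%, against 51.6% of all peaks), and what remained were the peaks at its starts.

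E2f1 had its start peak in bulk lists with 1.23% to 4.82% of peaks scoring higher, and on nascent chromatin in 5 of 6 lists. Peaks at E2f1 away from the start that recurred in every bulk list lay in the neighbouring gene model Necab3 (3 sites), so they cannot be assigned to E2f1. E2f2 differed between the systems in its rank within the lists: 1.84% to 5.31% of bulk peaks scored higher than its strongest start peak in the ES cell course, and 18.8% to 28.9% in MEF. In nascent lists the strongest start peak of E2f2 scored 172, 122 and 345 along the ES cell course, and 134 and 66 in MEF at 12h and 36h. The score of 66 is that of the peak at its upstream start, and the others are at its downstream start. The downstream start of E2f2 had a nascent peak in 5 of 6 lists and the upstream start in 3.

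Rrm1 and Rrm2, the large and small subunits of ribonucleotide reductase, had nascent start peaks in 5 of 6 lists each. Rrm2 scored 293, 297 and 326 along the ES cell course, and 409 and 141 in MEF at 12h and 36h. Rrm1 scored 186, 110 and 212, and 47 and 66, and in the 2 MEF lists 95.6% and 85.7% of peaks scored higher. Tk1 had no nascent start peak in ES cells at 0h and 9h and had one in EpiLC (score 86) and in MEF at 12h and 36h (92 and 57). The start of Tk1 shares its region with the neighbouring gene model Afmid. A site inside the Tk1 gene model, chr11:117822693-117823812, scored 4438, 6944 and 4474 in the bulk lists of MEF at 6h, 12h and 36h, where 3.23% to 4.87% of peaks scored higher. In ES cells it scored 146 at 0h and 369 at 9h, where 79.4% and 45.8% of peaks scored higher, and no peak was listed in EpiLC. It carried a nascent peak in MEF at 12h (245) and 36h (165) and in no list of the ES cell course.

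Over all 10 loci, peaks near starts and peaks away from them behaved differently in newly copied chromatin. Of the 79 bulk peaks at 0h in ES cells, 16 overlapped a nascent peak (20.3%, Wilson 95% interval 12.9% to 30.4%, counting error only), against 12.2% of all bulk peaks. At MEF 12h it was 20 of 80 (25%, interval 16.8% to 35.5%), against 10.3% of all. Split by place, 8 of 16 member start peaks overlapped a nascent peak at 0h (50.0%, interval 28.0% to 72.0%, against 58.9% of all start peaks) and 8 of 63 other peaks did (12.7%, interval 6.58% to 23.1%, against 6.18% of all other peaks). At MEF 12h, 11 of 18 start peaks (61.1%, interval 38.6% to 79.7%, against 53.4%) and 9 of 62 other peaks (14.5%, interval 7.83% to 25.3%, against 5.78%) did. The start peaks' intervals held the value of all start peaks at both times, with peaks at either end of Ccnd1, Ccnd2 and Ccne2 counted as start peaks. The interval of the other peaks lay above the value of all other peaks at these times, and also in EpiLC (12 of 60, 20.0%, interval 11.8% to 31.8%, against 10.2%) and MEF at 36h (6 of 47, 12.8%, interval 5.99% to 25.2%, against 4.15%). At 9h it did not (7 of 61, 11.5%, interval 5.67% to 21.8%, against 5.93%), and at MEF 6h none of 50 other peaks overlapped a nascent peak. Peaks of 1 locus share a source, and these intervals take them as independent. Several of those other peaks lie in neighbouring gene models, among them Syngr2 and Afmid at Tk1 and Necab3 at E2f1. The member other peaks leave out only starts of the members, whereas all other peaks leave out the starts of every gene. Peaks at a neighbour's start can therefore count in the member set only, and their part in the difference was not tested. The MEF 12h share was 16.7% with peaks of score 100 or more (interval 9.80% to 26.9%, against 7.28% of all bulk peaks) and 8.20% with lists of equal length (3.55% to 17.8%, against 2.37%). It was 10.0% where 50% of the bulk peak had to be covered (5.16% to 18.5%, against 6.03%), and there the interval held the value of all peaks.

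After 2 h of maturation, 42 of the 79 peaks at 0h overlapped a mature peak (53.2%, interval 42.3% to 63.8%, against 42.4% of all), 54 of 78 at 9h (69.2%, 58.3% to 78.4%, against 59.3%) and 35 of 76 in EpiLC (46.1%, 35.3% to 57.2%, against 47.8%). In MEF it was 9 of 65 at 6h (13.8%, 7.46% to 24.3%, against 7.92%), 40 of 80 at 12h (50.0%, 39.3% to 60.7%, against 32.1%) and 27 of 64 at 36h (42.2%, 30.9% to 54.4%, against 27.4%). The mature share of the members was above the nascent share at each of the 6 times. Mature lists were also the longer ones at each time, so the share and the length of the list moved together, and their part in the difference was not tested.

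**Figure D2:**
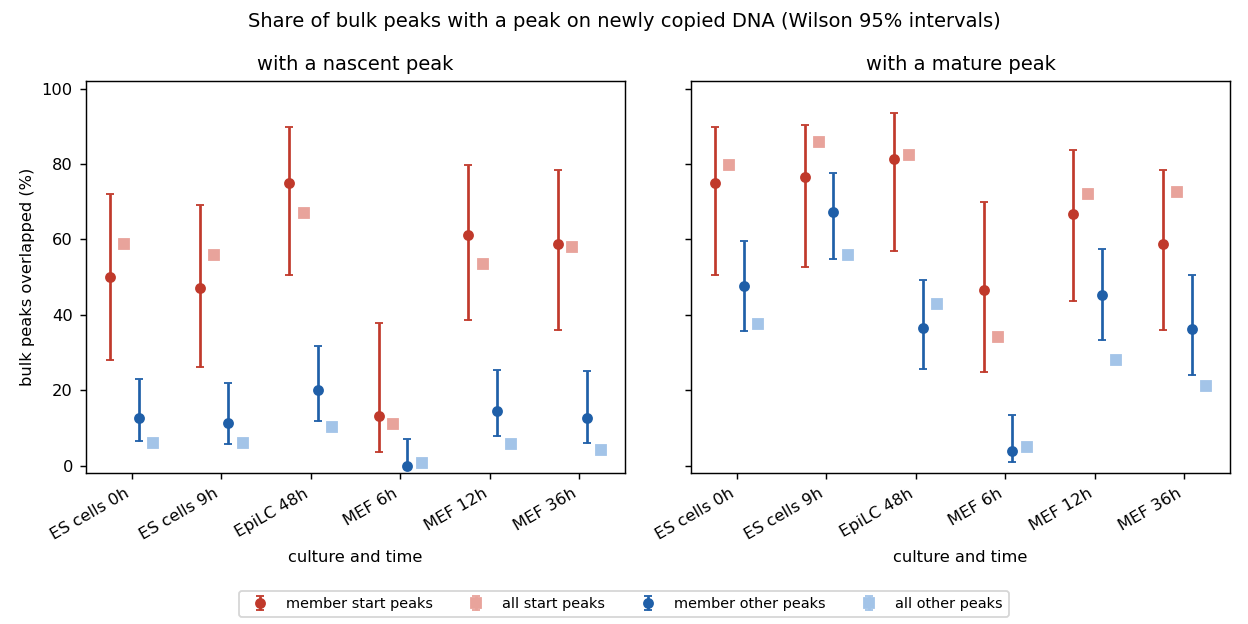
Percentage of bulk peaks overlapped by a nascent peak (left) or a mature peak (right) at 6 culture times. Classes are peaks within 1 kb of a member's start, other peaks at member loci, and all peaks within or beyond 1 kb of any gene's start. Bars are Wilson 95% intervals. Start peaks of members lie near those of all genes, and in the nascent panel other member peaks lie above all other peaks at 5 of 6 times. Other member peaks can lie at starts of neighbouring genes, and all other peaks cannot.

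The loci held about as many bulk peaks at the end of each course as at its start. Their number was 79, 78 and 76 at 0h, 9h and 48h of the ES cell course, a ratio of 0.962 from 0h to 48h (exact binomial interval 0.693 to 1.33, against 0.992 for the whole lists). In MEF it was 65, 80 and 64 at 6h, 12h and 36h, a ratio of 0.985 from 6h to 36h (interval 0.686 to 1.41, against 0.774 for the whole lists), and 83, 78 and 72 in the bulk lists of the chased arm, a ratio of 0.867. The interval of the first ratio holds the value of the whole lists, as does that of the second. Merged over the 9 bulk lists, the 10 loci held 133 sites. Of the 20 within 1 kb of a start, 13 were open in every bulk list (65.0%, against 60.2% of all start sites). Of the other 113, 20 were (17.7%), 42 were open in ES cell lists only and 34 in MEF lists only. Of all sites away from the starts of every gene, 6.51% were open in every bulk list. The 113 leave out only starts of the members and can hold starts of neighbouring genes, so the sets are not matched. Sites away from the members' starts were thus listed in 1 system in 76 of 113 cases (67.3%), against 81.7% of sites away from the starts of every gene. The share of start sites open in every list was near that of all genes, but it counts either end of Ccnd1, Ccnd2 and Ccne2 as a start. The 4 start sites open in MEF lists only lay at the low-coordinate ends of Ccnd1 and Ccnd2, away from the start regions named below. Without those sites the share would be higher.

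In the 4 sorted fractions at 60h the members had 51, 44, 49 and 37 peaks in Q1, Q2, Q3 and Q4, in lists of 71163, 64930, 73518 and 57762 peaks. Per 10000 peaks of the list that is 7.17, 6.78, 6.67 and 6.41. All 10 members kept a start peak in each fraction. E2f2 had 9, 6, 8 and 6 peaks and Rrm2 7, 5, 5 and 4, while E2f3 had 2 or 3.

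The aphidicolin experiment bears on accessibility when DNA synthesis is blocked during reprogramming, and it is the part of the series with counts per library (41183769 to 49440524 counts untreated and 55158844 to 78677381 with aphidicolin). Relative to the typical region, counts at the starts of the G1/S genes were lower with aphidicolin, as they were at the starts of many genes. Of the 10 start regions 9 were lower (edgeR's quasi-likelihood test on counts, Benjamini-Hochberg over all 138996 regions tested, threshold 0.05) and none was higher, with a median log2 fold change of -0.36. Of all 13530 start regions, 51.3% were called lower and 3.55% higher, with a median of -0.26. Fold changes moved with the strength of a region across the whole table: from the weakest to the strongest of 10 equal classes of regions by count, the median of all regions ran from 0.40 to -0.32. Of the 70 member regions 18, 9 of them within 1 kb of a start, lie in the strongest class. Each start is therefore also given with offsets that follow strength, which bring the median of all start regions to -0.001. With these offsets only Ccnd1 and E2f2 of the 10 stayed called lower, and Ccne1 and Ccne2 were called higher. Of all 138996 regions, 15292 were lower and 16075 higher with them. Scaled by library totals instead, the median of all regions moved to 0.18 and 79.2% of all called regions were higher, against 50.2%, so that directions are relative to the typical region.

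Values below are CPM (counts scaled to a common library total) after TMM scaling in libraries a, b and c of each group. No source ties these letters to a sample or says that samples came from separate cultures, so a p-value here measures only how far these samples vary, and that variation may be technical.

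Both D cyclins were lower at their starts, and with strength offsets Ccnd1 remained called while Ccnd2 was at -0.06 and not called. The Ccnd1 start region (chr7:144939576-144939923) had 16.7, 14.8 and 13.3 CPM untreated and 10.9, 10.3 and 10.6 with aphidicolin, a log2 fold change of -0.50 ± 0.09 (SE, n = 3 per group, adjusted p = 0.000731 by edgeR's quasi-likelihood test). All untreated libraries lay above all aphidicolin libraries. All 7 regions of the Ccnd1 locus were called lower, from -0.40 to -0.78, the lowest being a region of 2.25 ± 0.21 CPM untreated and 1.30 ± 0.17 with aphidicolin (SD, n = 3) that lies in the neighbouring gene model LTO1 (chr7:144928781-144929121). The region with the nascent peaks, at chr7:144943213-144943662, had a log2 fold change of -0.40. The Ccnd2 start region (chr6:127151762-127152742) had 33.3, 32.6 and 32.0 CPM untreated and 26.5, 25.8 and 23.7 with aphidicolin, a log2 fold change of -0.37 ± 0.08 (SE), without overlap between the groups. In its gene body a region at chr6:127147771-127147984 went from 10.98 ± 1.09 to 7.40 ± 0.57 CPM (SD, n = 3), or -0.57 on the log2 scale. Of 9 Ccnd2 regions 3 were called lower.

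The E cyclins had the smallest changes at their starts together with Rrm1, and with strength offsets they lay above 0, Ccne1 at 0.20 and Ccne2 at 0.22, both called. The Ccne1 start region (chr7:38106786-38108249) had 62.3, 49.2 and 43.2 CPM untreated and 48.7, 41.6 and 44.6 with aphidicolin, a log2 fold change of -0.20 ± 0.11 (SE) that did not pass the threshold (adjusted p = 0.157 by edgeR's quasi-likelihood test). Its groups overlapped, and untreated library a stood above the others. Without untreated library c the fold was -0.31 and was called (adjusted p = 0.00622 by edgeR). The Ccne2 start region (chr4:11190450-11192003) had 99.1, 83.9 and 73.3 CPM untreated and 76.6, 67.6 and 69.3 with aphidicolin, at -0.26 ± 0.10 (SE, adjusted p = 0.0417 by edgeR). Its groups overlapped too, and the call was lost without untreated library a (-0.15), untreated b (-0.27), aphidicolin b (-0.23) or aphidicolin c (-0.25). Beside it a smaller region of Ccne2 (chr4:11192210-11192409) went from 8.85 ± 0.55 to 5.79 ± 0.43 CPM (SD, n = 3), or -0.62 ± 0.10 (SE) on the log2 scale, with no overlap. At Ccne1 the region at chr7:38112065-38112271 was called lower at -0.27, with overlapping groups, and lost the call without either of untreated b (-0.22) and c (-0.24) or aphidicolin a (-0.24) and b (-0.24).

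All 3 E2F genes had lower starts under TMM scaling. With strength offsets E2f2 remained called and E2f1 was at 0.04. The E2f1 start region (chr2:154568935-154570413) had 81.2, 71.4 and 67.9 CPM untreated and 58.8, 53.0 and 54.6 with aphidicolin, a log2 fold change of -0.41 ± 0.08 (SE). Its groups did not overlap. A region beside E2f1 in the Necab3 gene model was called lower at -0.33 and lost the call without untreated library a (-0.17), aphidicolin a (-0.30), b (-0.34) or c (-0.36). At E2f2 the downstream start (chr4:136180076-136180735) had 19.5, 19.6 and 18.7 CPM untreated and 14.0, 12.1 and 13.1 with aphidicolin, a log2 fold change of -0.56 ± 0.08 (standard error, with adjusted p = 0.000183 by edgeR's quasi-likelihood test), which is the lowest of the 10 start regions. The regions at the upstream start of E2f2 were at -0.32 and -0.11 and were not called. A region inside the E2f2 gene model (chr4:136174906-136175083) went from 4.20 ± 0.70 to 2.52 ± 0.40 CPM (SD, n = 3), or -0.75 on the log2 scale.

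The E2f3 locus had 2 called regions, both at its starts. Its upstream start (chr13:29985908-29986692) had 65.2, 67.2 and 68.1 CPM untreated and 50.6, 47.6 and 48.8 with aphidicolin, a log2 fold change of -0.45 ± 0.08 (SE). Its downstream start (chr13:29984170-29985557) had 55.1, 48.3 and 42.0 CPM untreated and 39.3, 35.0 and 38.4 with aphidicolin, at -0.37 ± 0.09 (SE), and was not called without aphidicolin library b (-0.32). Both starts were lower in each aphidicolin library than in each untreated one. None of the other 8 regions of the E2f3 locus was called, with values from -0.42 to 0.25 at mean levels of 1.82 to 6.02 CPM untreated. Their difference from the starts was not tested. With strength offsets the upstream start was at -0.03 and the downstream start at 0.01, neither called.

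Rrm1 and Rrm2 were lower at their starts, Rrm1 least, but with strength offsets they were at 0.08 and 0.14 and not called. The Rrm1 start region (chr7:102441605-102442616) had 34.2, 35.2 and 35.6 CPM untreated and 31.4, 28.1 and 29.0 with aphidicolin, a log2 fold change of -0.25 ± 0.08 (standard error, with adjusted p = 0.0205 by edgeR). Its groups did not overlap, but the call was lost without untreated library b (-0.24), aphidicolin b (-0.22) or aphidicolin c (-0.24). The Rrm2 start region (chr12:24707485-24708821) had 75.0, 74.6 and 68.2 CPM untreated and 60.2, 56.9 and 58.1 with aphidicolin, at -0.31 ± 0.08 (SE), without overlap. A region near the far edge of the Rrm2 locus (chr12:24723920-24724809) went from 32.7 ± 1.67 to 22.2 ± 0.59 CPM (SD, n = 3), or -0.56 on the log2 scale. In the Rrm1 gene model a region (chr7:102444332-102444591) was called lower at -0.30 and lost the call without untreated library b (-0.28) or aphidicolin c (-0.25).

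Tk1 was lower across most of its locus. Its start region (chr11:117825404-117826455) had 33.3, 36.0 and 35.6 CPM untreated and 26.9, 26.8 and 27.9 with aphidicolin, a log2 fold change of -0.36 ± 0.08 (SE). The site inside the gene model that was strong in MEF lists (chr11:117822749-117823254) had 27.6, 30.1 and 30.4 CPM untreated and 18.9, 20.3 and 20.5 with aphidicolin, at -0.56 ± 0.08 (SE, adjusted p = 0.000144 by edgeR's quasi-likelihood test). Both regions had groups that did not overlap. With strength offsets the start was at -0.05 and not called. Of the 7 Tk1 regions 6 were called lower, and 2 of those 6 lie in the gene model Syngr2.

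**Figure D3:**
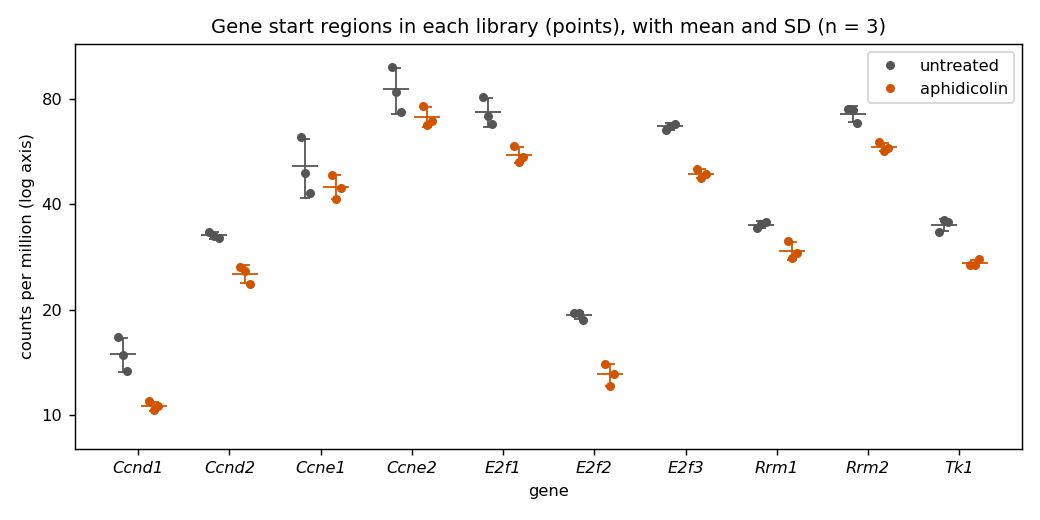
CPM (log axis) of the start region of each member in the 3 untreated and the 3 aphidicolin libraries (points), with mean and SD (n = 3). The groups overlap at Ccne1 and Ccne2 and are apart at the other 8 genes (over all start regions, 51.3% are lower without overlap).

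Counting all regions at the loci, 32 of 70 were lower and none was higher, with a median of -0.27. All 70 passed the filter on low counts. Of all regions tested, 17.9% of regions were lower and 18.0% higher, with a median of 0.02. Of the 51 member regions away from their own gene's starts 18 were lower and none higher. Of all regions away from the starts of every gene, 13.9% were lower and 20.0% higher. The 51 can hold starts of neighbouring genes, which the wider set leaves out, so the sets are not matched. Of the 70 regions, 11 overlap another gene model, and 6 of these were among the 32. The plot of fold changes shows that calls away from starts were most frequent at Tk1, Ccnd1 and E2f2.

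**Figure D4:**
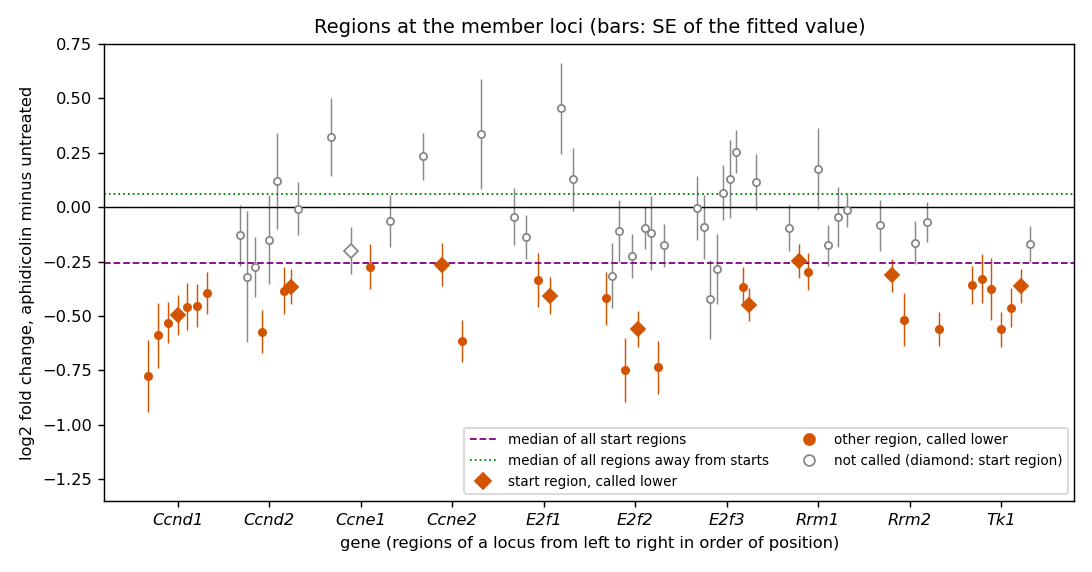
Log2 fold change (aphidicolin minus untreated) of each of the 70 regions by gene, with the SE of the fitted value; diamonds are start regions, filled symbols were called lower, and lines mark 0, the median of all start regions (-0.26) and of all regions away from starts (0.06). All 7 Ccnd1 regions and 6 of 7 Tk1 regions are filled.

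Summed over the whole locus, 6 of 10 members were lower: Ccnd1 (-0.28 ± 0.04, SE), Tk1 (-0.19), Ccnd2 (-0.14), E2f3 (-0.13), E2f2 (-0.13) and Rrm2 (-0.12). None was higher, and over all 18144 loci 26.8% were lower and 24.9% higher. The locus fit had TMM factors of its own, 0.99 to 1.03 untreated and 0.98 to 1 with aphidicolin. Those of the region fit were 0.92 to 0.97 and 1.04 to 1.06. Log2 fold changes of loci and of regions are therefore relative to different typical values, and their sizes cannot be compared. Ccnd1 had 86.4, 82.5 and 79.1 CPM untreated and 70.4, 66.3 and 68.3 with aphidicolin (adjusted p = 0.000358 by edgeR's quasi-likelihood test). Ccne1 (0.01), Ccne2 (-0.06), E2f1 (-0.11, adjusted p = 0.0626 by edgeR) and Rrm1 (0.05) did not pass the threshold. The call of E2f2 was lost without untreated library b (-0.12), aphidicolin b (-0.11) or aphidicolin c (-0.13), and that of Rrm2 without untreated library b (-0.08) or aphidicolin a (-0.12). With strength offsets 2 of the 6 remained, Ccnd1 and Tk1, while of all 18144 loci 3720 were lower and 3648 higher.

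The other genes of the pathway went both ways. Of 46 further genes of G1/S control and nucleotide synthesis, all with counts, 18 loci were lower, 3 higher and 25 not called, with a median of -0.07 against -0.002 for all loci. Over all loci 26.8% were lower and 24.9% higher. Among cyclins and kinases, 3 of 5 were lower: the third D cyclin gene Ccnd3 (-0.16), and Cdk2 (-0.24) and Cdk4 (-0.16), kinase partners of the E and the D cyclins. Cdk6, the other kinase partner of the D cyclins, was higher, from 152.4 to 179.6 CPM (0.24 ± 0.04, SE, adjusted p = 0.00132 by edgeR). Of 10 RB and E2F genes, Rbl1 (0.17) and Rb1 (0.14), which encode pocket proteins that hold E2F factors inactive, were higher, and Tfdp1 (-0.26) and Rbl2 (-0.13) lower. The call of Rb1 was lost without untreated library b (0.15) or aphidicolin c (0.14), and its value was -0.01 over gene start regions alone. With the scaling factors of the region table the median of all loci moved to -0.20. Of the 46, 39 were then lower and none higher, while of all 18144 loci 10084 were lower and 1664 higher. Under these factors Rb1 (-0.05), Rbl1 (-0.03) and the member Rrm1 (-0.15) lay below 0.

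Of 9 CDK inhibitors and ubiquitin ligase genes 3 were lower and none higher, and of 9 genes of deoxynucleotide synthesis 3 were lower and none higher, both near the 26.8% of all loci called lower. Cdkn2d, which encodes an inhibitor of Cdk4 and Cdk6, went from 146.9 to 111.3 CPM (-0.40 ± 0.04, SE, adjusted p = 7.36e-05 by edgeR). Among the deoxynucleotide genes Dut, the dUTPase that keeps uracil out of DNA, was at -0.42 ± 0.05 (SE), Dck at -0.24 and Rrm2b at -0.14. Tyms (-0.01), which encodes thymidylate synthase, was not called. Of 13 nucleotide and folate genes 7 were lower and none higher, with Mthfd2 at -0.29 and Impdh2 at -0.22. The plot of loci by list shows these values beside those of the members.

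**Figure D5:**
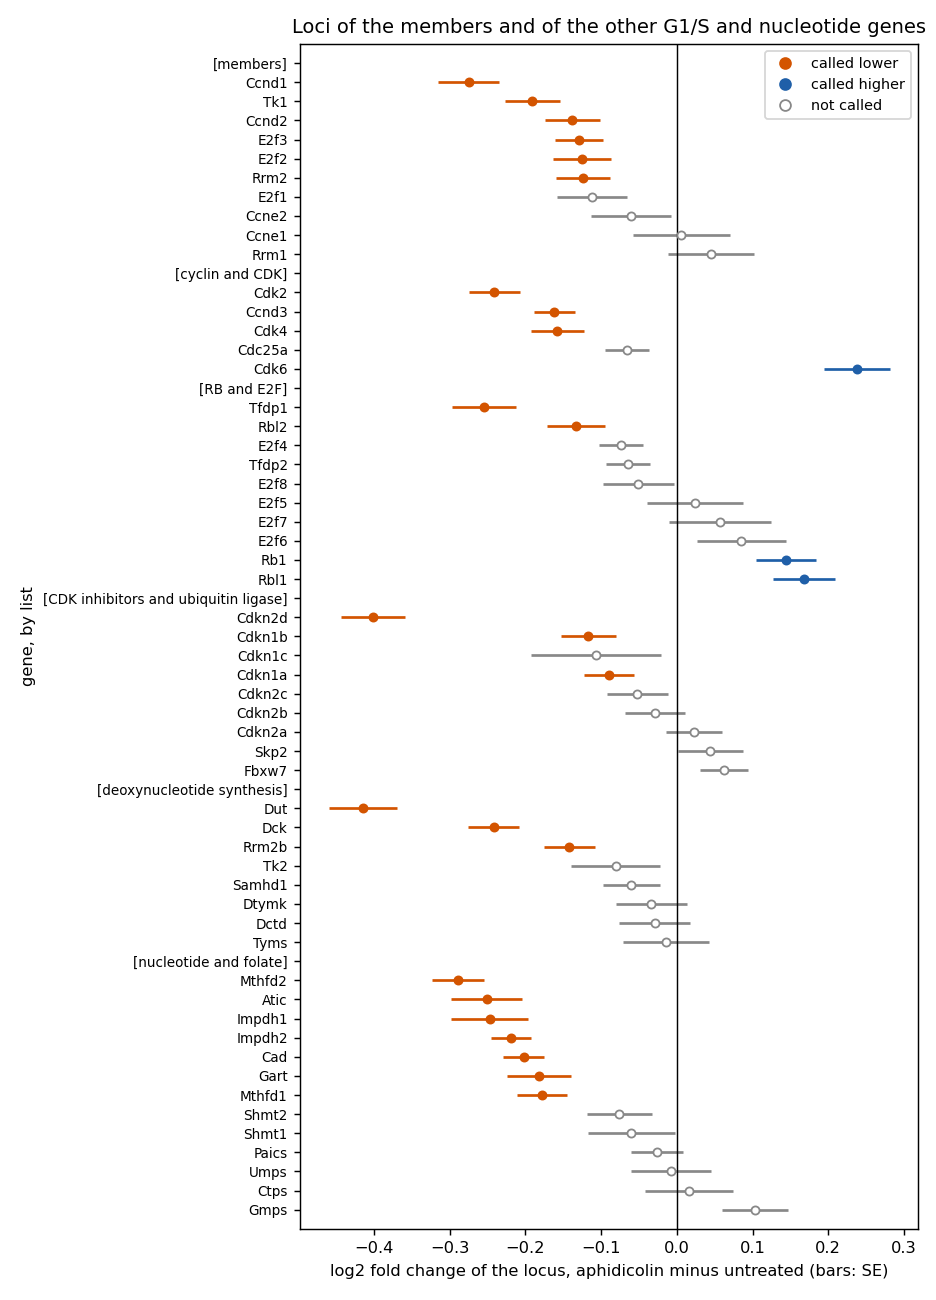
Log2 fold change of the locus (gene model with 10 kb each side, aphidicolin minus untreated) with its SE for the 10 members and the other pathway genes reported here, grouped by list; orange was called lower, blue higher and open grey not called. Cdk6, Rbl1 and Rb1 are the 3 called higher, and Dut and Cdkn2d lie farthest below 0.

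Markers of other cell types moved in the same comparison. Summed locus CPM of 10 fibroblast markers overlapped between the groups (669.1 to 704.4 untreated, 679.7 to 695.5 with aphidicolin), and 3 of them were called higher and 3 lower. The summed values of 5 endothelial markers (161.4 to 177.3 against 191.8 to 196.9, 3 of 5 higher) and of 5 muscle and neural markers (123.9 to 130.3 against 160.4 to 164.4, 2 higher and 1 lower) were higher with aphidicolin in every library. Those of 5 blood markers were lower (237.8 to 251.2 against 206.1 to 210.8, 2 higher and 2 lower), as were those of the 8 of 10 naive ES cell markers with counts (444.6 to 445.1 against 392.5 to 401.3, 2 higher and 3 lower). Those of 5 formative markers were higher (75.3 to 88.8 against 89.9 to 93.4, 2 of 5 higher). Cd68 alone made up most of the blood sum (mean 173.8 CPM untreated, 137.7 with aphidicolin). Likewise Map2 made up most of the muscle and neural sum (95.7 and 125.9), so these sums mainly follow single loci. Klf4 (135.5 and 112.2), Tbx3 (95.3 and 84.2) and Klf2 (79.0 and 64.9) made up most of the naive sum. These were its 3 markers called lower, while Esrrb and Dppa3 were called higher. Over all loci 24.9% were called higher and 26.8% lower. No marker with counts had a mean of 0, the lowest being Lyz2 at 0.802 CPM untreated, and Zfp42 and Nr0b1 had no counted region. Their part in the values of the G1/S genes was not tested.

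The ranges of member peaks per library overlapped between the groups, while the lists were longer with aphidicolin. Called per library, untreated lists held 75, 72 and 64 peaks at the 10 loci and aphidicolin lists 70, 74 and 69 (means 70.3 ± 5.69 and 71.0 ± 2.65, SD, n = 3; two-sided exact permutation test, p = 1.0, where 0.1 is the smallest p possible, so that the test could not have passed the threshold). The whole lists held 116939 to 129546 peaks untreated and 148292 to 163947 with aphidicolin. Per 10000 peaks of its list the members had 5.47 to 5.79 untreated and 4.36 to 4.72 with aphidicolin, without overlap. Peaks at the starts of all genes made up 13.4% to 14.0% of a list untreated and 10.7% to 11.7% with aphidicolin, also without overlap. All 10 members had a start peak in each of the 6 lists, against 65.9% to 68.9% of all genes.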

How the data were processed

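Peaks came as 25 pooled lists (1 per group) and 6 single-sample lists, and a count table covered 139000 regions in 6 libraries. Per the submitters' processing notes the build was mm10 and the tools included MACS2 2.2.0, bedtools 2.26.0, Bowtie2 2.2.5 and cutadapt 2.2.0, beside SAMtools 1.4.1 and bcl2fastq 2.19.1. The deposited counts are whole reads per region and were not normalized by the authors. The deposited peak score is the authors' peak caller output and was used only within a list. Regions and peaks were assigned to loci (gene model with 10 kb each side) and, within 1 kb, to starts, with an overlap of 1 bp. Counts per region and per locus were tested with edgeR 4.0.16 (TMM, filterByExpr, quasi-likelihood, limma 3.58.1, R 4.3.3) over the 6 libraries, with Benjamini-Hochberg adjustment over the whole table at 0.05. Alternatives were DESeq2 1.42.0, other scalings, filters, windows and samples. The scripts (pandas 2.3.3, numpy 2.4.6, scipy 1.17.1, matplotlib 3.10.9) were tested on simulated data. Besides the members, their start regions and the called region with the largest fold per member were named, and of the other pathway genes up to 4 called higher and 4 called lower with the smallest p. The remaining regions and pathway genes named (Cdk2, Ccnd3, Cdk4, Tfdp1, Rbl2, Dck, Rrm2b, Tyms) were chosen after their values were seen. Lists were 46 further genes in 5 groups and 6 sets of cell type markers, and 1 listed gene is counted but not reported by name here. The members and lists were chosen with earlier results of these data known. Of the members, 7 had an entry in the RefSeq promoter table, and Ccnd1, Ccnd2 and Ccne2 had none. Peak counts carry no replicate error, and intervals cover counting error only.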

Additional observations from a re-analysis of the deposited data

How the results depend on the processing

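Over the alternatives, 54 of 60 recomputed values of the main comparisons gave a number of calls of similar size or stayed within the interval. The direction of the calls was not compared for these numbers. Of 512 recomputed values for single genes and regions, 437 kept their side of the threshold, and 54 lost and 11 gained a call. A further 10 changed sign where the main or the recomputed value was called. Sign changes between values that both missed the threshold count among the 437. With strength-dependent offsets 2 member loci were called in place of 6, and 7368 of all 18144 loci in place of 9390. With the same offsets the start regions of Ccne1 (0.20), Ccne2 (0.22), E2f1 (0.041), Rrm1 (0.075) and Rrm2 (0.14) and the downstream E2f3 region (0.013) changed sign, as fold changes on the log2 scale. With the TMM factors of the region table for the loci, chosen after seeing the data, 39 of the 46 other pathway genes were called in place of 21. Of all 18144 loci 11748 were then called in place of 9390. With these factors Rrm1 (-0.15), Rbl1 (-0.026) and Rb1 (-0.047) changed sign, as did Rb1 over gene start regions only (-0.013). The share of ES cell bulk peaks with a nascent peak at 0h was 12.7% where 50% of the bulk peak had to be covered (interval 7.02% to 21.8%, against 6.74% of all bulk peaks). For MEF at 12h that share was 16.7% with scores of 100 or more, 8.20% with lists of equal length and 10.0% with 50% covered. The cause of these changes was not tested. Leaving out 1 library gave 4 to 8 member loci, 24 to 36 member regions and 17 to 23 other pathway genes called. The whole tables then had 6942 to 10245 loci and 30466 to 57935 regions called. With the replicate number as a block, 7 member loci, 37 member regions and 24 other pathway genes were called, E2f1 among the loci (-0.11) and Ccne1 among the start regions (-0.19). The whole tables had 11204 loci and 60466 regions called with the block. Deviations of same-numbered libraries correlated at 0.482, 0.0354 and 0.29, and those of differently numbered libraries at -0.467 to 0.299. Not every library correlated best with its own number, and whether same-numbered libraries were paired cannot be told from these values. Pooled lists give no replicate error, and nascent lists of 3222 to 27693 peaks limit what is detectable on new chromatin.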
